A study of Danio rerio with 12 samples.

Results

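The unexposed zebrafish embryo was described here through its 4 control pools, the libraries titled Control 1 to Control 4, which make up 4 of the 12 samples of a series on sodium arsenite. Embryos came from a wild-type import that the submitters had bred in their own laboratory for more than 8 generations. Each control pool held 20 embryos, received no exposure and was taken at 72 hours post fertilisation. The whole embryo was used, so each value is an average over all its cell types and over 20 animals of unstated sex, and no cell type can be read from it. The labels do not say whether the 4 pools came from separate clutches, so the spread between them may be technical. A CCCGGG site was analysed where every one of the 4 pools had at least 20 reads on it, which held for 2419 of the 64466 sites listed (3.75%), on all 25 chromosomes.

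In vertebrates most CpG cytosines carry a methyl group, while CpG islands at gene starts are typically free of it. Maintenance methylation by Dnmt1 copies the pattern onto new DNA strands at each cell division. The zebrafish embryo has no genome-wide loss of the paternal pattern of the kind seen in mammals, and the late embryo is known for high methylation across the genome with unmethylated islands. The assay, digital restriction enzyme analysis of methylation (DREAM), reads the CpG in the middle of each CCCGGG sequence. SmaI cuts that sequence when the CpG is unmethylated and leaves blunt ends, and XmaI then cuts the methylated copies and leaves a different end. The methylation level of a site is therefore the percent of its reads that carry the methylated end.

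The control libraries held 1614622, 1425613, 1534609 and 1666841 reads at listed sites in controls 1 to 4. Between 91.4% and 94.96% of these reads fell on the 2419 analysed sites, while 29860 listed sites (46.3%) had 0 reads in all 4 pools. The median analysed site had 330, 289, 309 and 326 reads in controls 1 to 4. Control 2 had the fewest reads and the largest share at listed sites, analysed or not, with no other listed site within 1000 bp, 10.7% against 7.47% to 8.79% in the other pools. The 4 libraries were distinct, since the read numbers of every pair of pools differed over sites by 3.56 to 6.80 times the chi-square that counting gives. Positions are in danRer7, per the submitters' processing notes, and the genes at them were not looked up, because no annotation of that build was used here.

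Most sites were close to fully methylated and a smaller set was close to fully unmethylated. The mean level over the 2419 sites was 80.3% in control 1, 80.9% in control 2, 80.3% in control 3 and 80.2% in control 4, or 80.5% ± 0.303 (SD, n = 4). The pools lay within a point of each other, although the counting error of each mean was only 0.0474 to 0.0492 points. The median site stood at 95.5%, with quartiles of 82.1% and 98.5%, so the mean lay far below the typical site. Weighted by reads the level was lower, at 67.2%, 69.96%, 68.7% and 68.6% in controls 1 to 4, and the unmethylated sites were the more deeply read ones.

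Sites were sorted into 4 classes by their mean level over the 4 pools. The unmethylated class, under 10%, had 240 sites (9.92%), and 216 of them were under 1%. A partly methylated class of 10 to 70% had 243 sites (10.0%), an intermediate class of 70 to 90% had 341 (14.1%), and the methylated class of 90% and over had 1595 (65.9%). The emptiest stretch of the scale lay between 1% and 30%, where the bands of 1 to 10%, 10 to 20% and 20 to 30% held 24, 17 and 24 sites. Upwards from there each step of 10 points held more sites than the one before, with 41 at 30 to 40%, 98 at 70 to 80% and 243 at 80 to 90%. Above 99% stood 421 sites. There was thus a sharp lower peak and a broad upper shoulder, and not a mirror image.

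**Figure D1:**
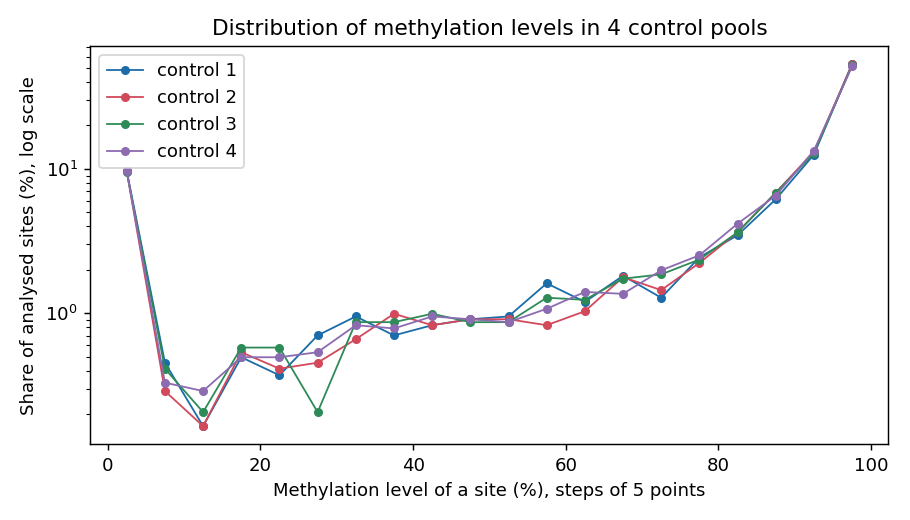
Share of analysed sites (vertical axis, percent, log scale) by methylation level in steps of 5 percentage points (horizontal axis, percent), 1 line for each of the 4 control pools. The lines have peaks at both ends, with 51.4% to 53.2% of sites in the top step and 9.59% to 9.67% in the bottom step.

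Level varied unevenly with read depth near the coverage minimum. The 140 sites whose lowest pool had 20 to 24 reads averaged 87.6%, with 3.57% of them under 10%, and the 211 sites just outside, at 15 to 19 reads, averaged 83.6%, with 7.11% under 10%. Sites whose lowest pool had 25 to 49 or 50 to 99 reads averaged 83.5% and 82.9%, with 4.71% and 5.31% of them under 10%. The mean at 20 to 24 reads was thus higher than on both sides of it. At sites with at least 100 reads in every pool the mean was 78.6% and 12.6% were under 10%. Depth also differed by class, with a median of 1132 reads per pool at unmethylated sites and 287 at methylated sites. The unmethylated class was 9.92% of the sites and took 22.4% of the reads. The part of depth in the class shares was not tested.

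The unmethylated class was the most uniform of the 4. Its mean level was 0.484%, 0.507%, 0.571% and 0.534% in controls 1 to 4, or 0.524% ± 0.0373 (SD, n = 4), and 237 of its 240 sites were under 10% in each pool taken alone. At 41 of them no pool had a single methylated read. The median of these had 412 reads over the 4 pools, so that a count of 0 allows a level of up to 0.728%. The deepest of them, on chromosome 23 at position 24869851, had 0 methylated among 8736 reads, which allows up to 0.0343%. These limits and all intervals given here cover counting error only. They and all counting errors given here take reads as independent, although PCR reads without molecular identifiers are not independent molecules.

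Methylated sites, as a class, did not come as near to the opposite limit. In the class of 90% and over the mean was 97.2%, 97.2%, 97.0% and 96.9% in controls 1 to 4, or 97.1% ± 0.127 (SD, n = 4). At 120 of its 1595 sites no pool had an unmethylated read, and the median of these had 254.5 reads, so that up to 1.18% may be unmethylated. On chromosome 17 at position 40102912 all 11771 reads were methylated, so that the unmethylated share was at most 0.0255%, and its nearest listed CCCGGG lay 5486 bp away. The other most deeply read methylated sites were on the long arm of chromosome 4. At position 61296643 the level was 97.3%, 97.5%, 97.3% and 97.2% in controls 1 to 4, and at position 61959341 it was 98.1%, 98.1%, 97.8% and 98.2%. Neither of the chromosome 4 sites reached full methylation in any pool, and the pools were within a point of each other at both.

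Unmethylated sites stood together. With gaps of up to 5000 bp and no other analysed site between them, the 240 sites formed 132 runs, and 97 runs of at least 2 sites held 205 of them. Most of these runs, 89, had exactly 2 sites. The longest was on chromosome 19 from 30798577 to 30799623, where 5 sites over 1047 bp averaged 0.0292%, 0.0261%, 0.0360% and 0.0141% in controls 1 to 4. Next came 4 sites over 1743 bp on chromosome 9 from 52778730 to 52780472, at 0.512%, 0.665%, 0.177% and 0.444%, where the thinnest site had only 30 reads in a pool. A run of 3 sites on chromosome 14 from 2318056 to 2318810 averaged 0.103%, 0.319%, 0.0741% and 0.266%, with at least 713 reads per site and pool. Another run of 3, on chromosome 2 from 55503512 to 55504185, averaged 0.0347%, 0.140%, 0.0261% and 0.0336%. In all 4 runs the average of every pool stayed under 1%, although the highest site mean in the chromosome 9 run was 1.21%. There were 6 runs of 3 sites, and the 2 named had the widest span. Another of them, on chromosome 8 from 56092388, averaged 0.0550%, 0.0344%, 3.33% and 0.414% in controls 1 to 4. Its thinnest site had only 20 reads in a pool. All 25 chromosomes held at least 1 unmethylated site. An analysed neighbour within 600 bp was common in any case, at 61.0% of all analysed sites and 85.8% of unmethylated ones. A run also ended where no further analysed site lay within 5000 bp. The number and length of runs are thus not those of unmethylated stretches of DNA.

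The deepest unmethylated sites showed how low a well-read level could be. The site on chromosome 11 at position 21820212 had 6021, 4853, 5446 and 5802 reads in controls 1 to 4 and levels of 0.0664%, 0.0618%, 0.202% and 0.0517%. On chromosome 8 the sites at 26976003 and 26976240, 237 bp apart, followed in depth. The left one had levels of 0.0427%, 0.112%, 0.0963% and 0.158% in controls 1 to 4, and the right one 0.0214%, 0.141%, 0.0241% and 0.885%. Control 4 stood apart at the right site, while at the left site its lead over control 2 was 7 against 4 methylated reads, within counting error.

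Partly methylated sites kept their place on the scale from pool to pool, within limits. The class of 10 to 70% averaged 45.8%, 48.8%, 46.8% and 46.6% in controls 1 to 4, or 47.0% ± 1.29 (SD, n = 4). Of its 243 sites, 194 (79.8%) were in the same class in every pool, against 98.8% of unmethylated and 90.7% of methylated sites. The intermediate class of 70 to 90% did so at 191 of 341 sites (56.0%). Over all classes 2068 of 2419 sites (85.5%) did not change class in any pool.

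A few sites stood near 50%, the level at which an equal number of methylated and unmethylated copies was read. Among sites with at least 100 reads in each pool, the 4 nearest to it were taken. On chromosome 12 the site at 28834020 had 46.8%, 48.9%, 50.1% and 47.8% in controls 1 to 4, and its neighbour 152 bp away had 60.1%, 60.6%, 61.3% and 59.5%. Both sites repeated to within 4 points in all pools and yet stood apart from each other. On chromosome 19 the site at 31272467 had 53.1%, 50.6%, 55.2% and 47.0%, and on chromosome 13 the one at 4874861 had 47.3%, 54.3%, 56.2% and 47.5%. The last of the 4, on chromosome 21 at 25325253, had 52.0%, 56.2%, 43.7% and 40.6%. It was also among the sites named below for the largest chi-square between pools. The authors' adjusted levels placed all 4 sites somewhat higher, at means of 53.9%, 56.9%, 56.8% and 53.5% on chromosomes 12, 19, 13 and 21. A level near 50% in a pool of embryos does not tell whether alleles, cells or animals differ.

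Neighbouring sites had similar levels. For consecutive listed sites up to 600 bp apart that were both analysed, 770 pairs in all, the median absolute difference was 3.07, 2.93, 3.13 and 3.32 points in controls 1 to 4, or 3.11 ± 0.159 (SD, n = 4). Pearson's r of their mean levels was 0.876, as a description over 770 pairs of sites that share libraries and often fragments. In 575 pairs (74.7%) both sites fell in the same class, and 26 pairs (3.38%) differed by over 50 points. Among the 43 consecutive pairs more than 1000 bp apart the median difference was 13.3 ± 1.47 points (SD, n = 4), and 25.6% differed by over 50 points. These pairs were few and not typical of distant sites. Over all pairs of analysed sites, the median difference of mean levels was 6.22 points at 1 to 5 kb and 4.49 at 5 to 20 kb. At 20 to 100 kb it was 9.96 points, and beyond 1000 kb 9.17.

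The share of neighbours within 600 bp that fell in the same class differed between classes. The classes are of unequal width, and 56.0% of sites of 70 to 90% kept their class in every pool, against 98.8% of unmethylated sites. Same-class shares thus do not compare the likeness of neighbours between classes. Each pair was counted from both of its sites. Of the neighbours of unmethylated sites, 206 of 215 (95.8%) were themselves unmethylated, from 103 pairs, beside 9.92% of all analysed sites. For the class of 10 to 70%, 60.4% of neighbours were in the same class, beside 10.0% of all sites, and 24.0% were methylated. The neighbours of sites of 70 to 90% were in that class at 34.9% and were methylated at 51.8%. Neighbours of methylated sites were methylated at 82.2%, beside 65.9% of all sites, and unmethylated at 0.437%. An analysed neighbour within this distance was also more common at unmethylated sites, 85.8% of which had one, than at methylated sites, at 54.6%. The shares of all analysed sites are thus not those of the sites that could be neighbours.

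Levels were less alike at 20 to 100 kb than within 1 kb. Over all pairs of analysed sites, and not consecutive ones only, r was 0.870 up to 0.3 kb (572 pairs), 0.867 from 0.3 to 1 kb (322 pairs), 0.503 from 1 to 5 kb (199 pairs), 0.294 from 5 to 20 kb (158 pairs) and 0.0232 from 20 to 100 kb (447 pairs). Of the pairs at 1 to 5 kb, 63 of 199 lay in a single stretch of 100 kb on chromosome 4, and without them r was 0.429. Few pairs held an unmethylated site at 1 to 5 kb, 8 of 199, or at 5 to 20 kb, 4 of 158. Up to 0.3 kb it was 76 of 572, and at 20 to 100 kb 58 of 447. The value of r also depends on the range of levels, so it cannot be compared evenly between these bins. Pairs more than 50 points apart made up 3.32% up to 0.3 kb, 4.35% at 0.3 to 1 kb and 8.54% at 1 to 5 kb. At 5 to 20 kb it was 6.33%, and at 20 to 100 kb 21.5%. Of pairs up to 0.3 kb with at least 1 unmethylated site, 92.1% were unmethylated at both sites, and at 20 to 100 kb it was 6.90%. Unmethylated stretches were thus read over about a kilobase here, with few pairs to follow them further, since at 1 to 5 kb 4 of only 8 such pairs were unmethylated at both sites.

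**Figure D2:**
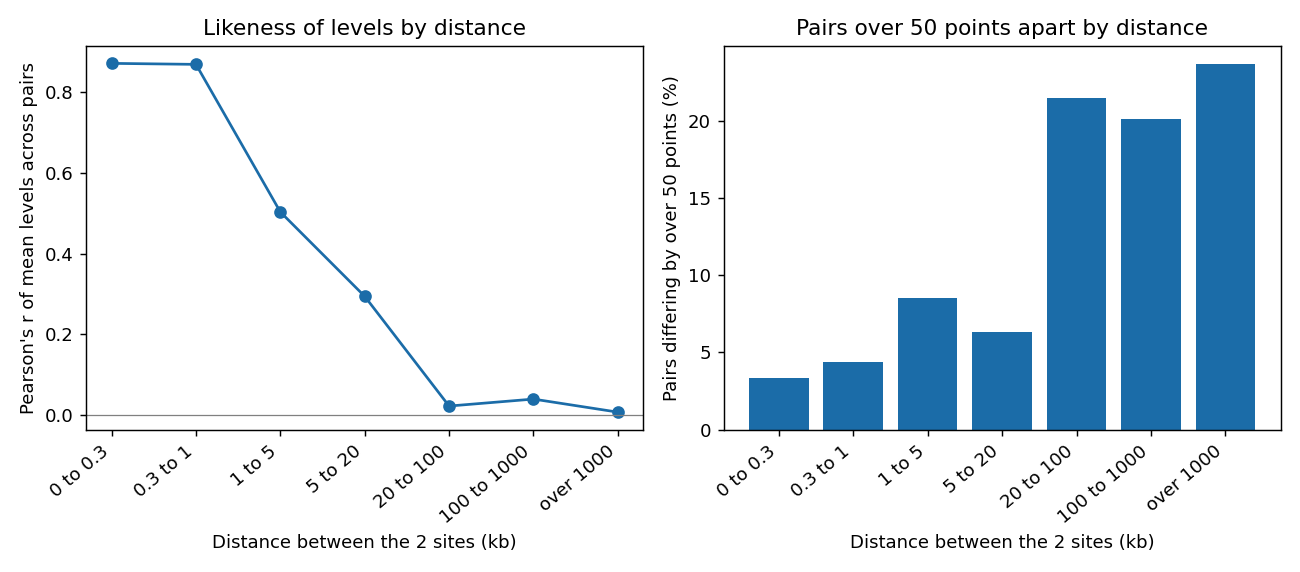
Pairs of analysed sites by the distance between them (horizontal axes, kilobases). The left panel gives Pearson's r of the mean levels of 4 control pools, which is 0.870 in the nearest bin and 0.0232 at 20 to 100 kb, and the right panel gives the percent of pairs more than 50 percentage points apart.

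Many neighbours also matched in read number. In 329 of the 770 pairs up to 600 bp apart (42.7%), the read numbers of the sites were within 5% of each other in all 4 pools. The labels do not say whether the ends of a fragment were both counted. These pairs had a median difference of 2.36 ± 0.135 points (SD, n = 4), with 3 pairs (0.912%) over 50 points apart. The other 441 pairs had a median difference of 3.69 ± 0.165 points, with 23 (5.22%) over 50 points apart, and an r of 0.722 against 0.957 in the pairs of like read number. The part of shared fragments in the likeness of neighbours was not tested.

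The deviations of single pools also ran together at neighbours. At 123 pairs where both sites were at 10 to 90%, the deviations of the 4 pools from each site's mean correlated with those of the neighbour at r = 0.525 over 492 points, a description, since the 4 points of a pair share a site and each pool supplies 123 of them. In the 77 pairs of like read number r was 0.722, and in the 46 others it was 0.391. With the points of control 2 left out, the values were 0.682 and 0.307. The deviations were still taken from the mean of all 4 pools, so control 2 was not fully removed.

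A few neighbours had opposite levels, and these repeated in every pool. The 6 most different pairs with at least 50 reads per pool at both sites were 36 to 482 bp apart. On chromosome 10 the site at 23282395 had a mean of 0.933% and the one at 23282877, 482 bp on, had 94.0%. On chromosome 15 the order was the other way, with 86.9% at 35196664 and 0.869% at 35196938, 274 bp on. Both sites of these pairs had almost equal read numbers, with 232, 161, 242 and 162 reads at the left site and 231, 156, 225 and 164 at the right site of the chromosome 10 pair in controls 1 to 4. The chromosome 15 pair had 720, 587, 714 and 725 reads at the left site and 716, 581, 714 and 724 at the right site.

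The remaining 4 pairs joined a methylated site to a weakly methylated one. On chromosome 21 the levels were 12.1% at 16613428 and 97.7% at 16613639, and on chromosome 6 they were 98.5% at 59083311 and 24.3% at 59083521. On chromosome 25 they were 23.3% at 32013399 and 97.5% at 32013435, only 36 bp apart. On chromosome 18 the left site, at 14569862, had 96.6%, and the right one, at 14570301, had 19.9%, 23.5%, 8.03% and 15.6% in controls 1 to 4. The weakly methylated member of that pair was the one with visible spread between pools, and in every pool it stayed far below its neighbour. Read numbers were unlike in some of these pairs. In control 1 the left and right sites had 301 and 1594 reads on chromosome 21, and 1732 and 95 on chromosome 6. They had 128 and 173 reads on chromosome 25, and 273 and 276 on chromosome 18.

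Coverage followed the spacing of CCCGGG sequences. Of the analysed sites, 28.9% had another listed site as near as 200 to 300 bp and 24.7% one at 100 to 200 bp, while only 6.50% and 5.05% of all listed sites lay so. Sites more than 5000 bp from the next were 4.63% of the analysed and 44.9% of the listed ones. Of the listed sites at 100 to 600 bp, 16.2% to 18.4% per step of 100 bp were analysed, against 0.387% beyond 5000 bp. The analysed sites thus mostly had another listed site close by, and were not a fair sample of the listed ones.

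Level varied with spacing without a steady trend. The mean was 87.3% where the nearest listed site was within 50 bp, 74.6% at 50 to 100 bp and 78.8% at 100 to 200 bp. It was 82.7% at 200 to 300 bp, 80.4% at 300 to 400 bp, 78.6% at 400 to 500 bp and 76.7% at 500 to 600 bp. At 600 to 1000 bp it was 68.9%, over only 50 sites, while at 1000 to 5000 bp it was highest at 89.6%, over 72 sites, and beyond 5000 bp it was 82.5%. From 200 to 1000 bp each step was lower than the one before, and outside that range no direction held. By number of neighbours the order was also uneven, with 78.6% at the 1606 sites that had 1 other listed site within 1000 bp, 84.7% at the 445 sites with 2, 80.8% at the 143 sites with 3 or 4 and 83.0% at the 41 sites with at least 5.

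Sites alone within 1000 bp could not be placed above or below the rest. The 184 of them averaged 85.3% ± 0.176 (SD, n = 4), against 80.1% ± 0.323 at the 2235 others, a difference of 5.23 points, with 5.43% and 10.3% of sites unmethylated. With a minimum of 10 reads the difference was -2.47 points, over 298 lone sites, and with a window of 500 bp it was -0.62 points. Lone sites were also read less deeply, with a median of 150.75 reads.

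Chromosomes differed in mean level by more than the pools did. Chromosome 8 was lowest at 68.1% ± 0.261 (SD, n = 4), followed by chromosome 19 at 70.7% ± 0.275 and chromosome 24 at 74.8% ± 0.516. At the top were chromosome 3 at 89.7% ± 0.517, chromosome 1 at 88.2% ± 0.265 and chromosome 4 at 86.0% ± 0.327. The SD over the 25 chromosome means was 5.14 points, and the SD over the 4 pools within a chromosome was between 0.227 and 0.790 points. Chromosomes 8 and 19 were the lowest, and chromosomes 3, 1 and 4 the highest, in each pool, while chromosome 24 had rank 3 in 3 pools and rank 4 in control 2. With 66 to 137 sites per chromosome, in 43 to 83 separate regions, pools give the error of measuring these sites and not that of the chromosome as a whole.

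The low chromosomes were rich in unmethylated sites. On chromosome 8, 24 of 112 sites (21.4%) in 12 runs were unmethylated, and on chromosome 19, 21 of 107 (19.6%) in 10 runs, against 4 of 90 (4.44%) on chromosome 3. Chromosome 24 was low in another way, with 10.7% unmethylated sites, close to the 9.92% of all sites. It had 16.7% at 10 to 70% and 22.6% at 70 to 90%, beside 10.0% and 14.1% of all sites. The share at 10 to 70% was not particular to it, with 19.5% on chromosome 13 and 16.8% on chromosome 18. Without the unmethylated sites, chromosome 24 was lowest at 83.8%, chromosome 8 had 86.7% and chromosome 3 had 93.9%. Median sites differed far less than means, between 89.3% on chromosome 8 and 97.5% on chromosome 1. Counting each region once placed chromosome 8 at 73.5% and chromosome 3 at 90.8%.

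**Figure D3:**
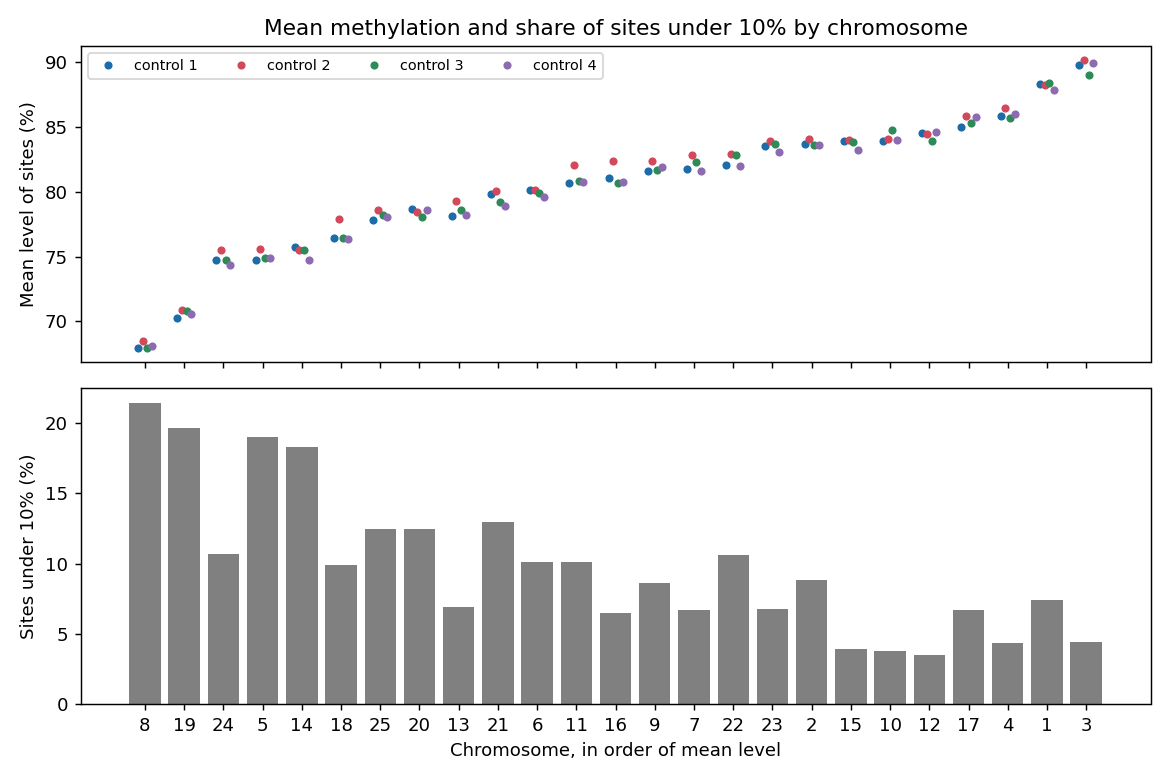
The upper panel gives the mean level of the analysed sites (percent) of each chromosome in each of the 4 control pools, with chromosomes in order of their mean. The lower panel gives the percent of sites under 10%, which is 21.4% on chromosome 8 at the left and 4.44% on chromosome 3 at the right.

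Chromosome 4 was uneven along its length. Its long arm in zebrafish is known to be rich in repeats and late in replication. Before 20 Mb its 42 analysed sites averaged 76.3% ± 0.780 (SD, n = 4) and 6 were unmethylated. Of these, the 30 sites at 0 to 10 Mb averaged 83.7%, and the 12 sites at 10 to 20 Mb averaged 57.8%, with 4 unmethylated. From 20 Mb on 95 sites averaged 90.3% ± 0.185 and 0 were unmethylated. From 30 to 60 Mb the means were 95.9%, 96.0% and 96.3% per step of 10 Mb. The last stretch, from 60 Mb, was different again, with 22 sites at 70.3% ± 0.105. The 100 kb with 63 of the pairs at 1 to 5 kb lies in it, from 61.2 Mb. Reads from repeats can be placed at a wrong copy, and the authors' handling of them is not stated in the labels.

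The spread between pools was largest at partly methylated sites and was larger than the counting error of independent reads. The binomial SD takes each read as independent, so PCR copies would make it too small and the spread beyond counting too large. At sites of 10 to 90% the root mean square SD between pools was 5.11 points, the binomial SD of the same reads was 4.03 and the spread beyond counting was 3.15. At unmethylated sites the 3 values were 0.662, 0.614 and 0.246 points, and at methylated sites 1.84, 1.56 and 0.965. With depth the SD fell more than the spread beyond counting did. At sites of 10 to 90% with 20 to 100 reads the SD was 7.28, the binomial SD 6.24 and the spread beyond counting 3.74 points, and with at least 1500 reads they were 1.99, 0.945 and 1.75.

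**Figure D4:**
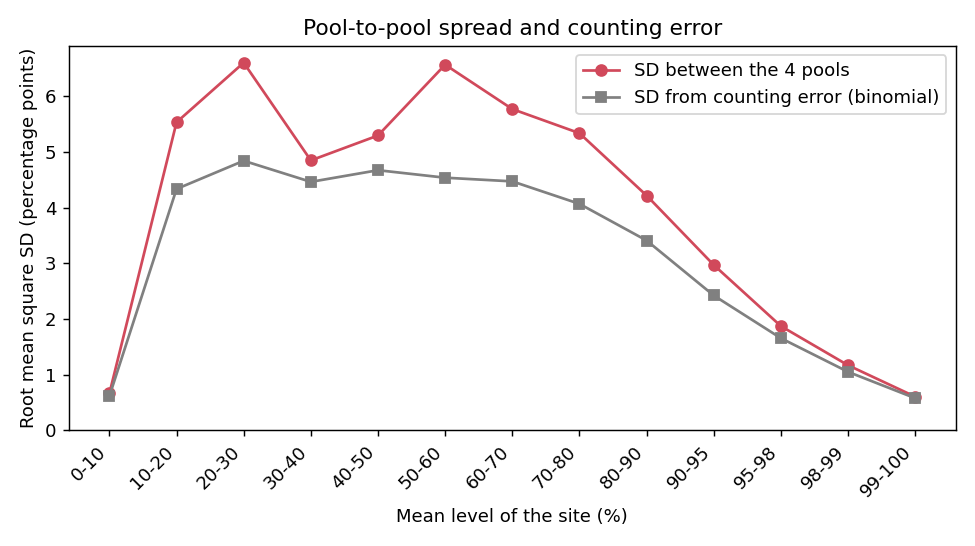
Root mean square SD between the 4 control pools (circles) and the SD that binomial counting error gives for the same reads (squares), both in percentage points, by mean level of the site (horizontal axis, percent). The SD between pools is highest, at 6.60 points, in the band of 20 to 30%, which has only 24 sites. These include the site on chromosome 23 at 25309283, whose own SD was 21.9 points. The band of 50 to 60% has nearly the same value, 6.57 points.

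Single sites repeated well between any pair of pools. The mean absolute difference over all sites was 2.09 to 2.35 points for the 6 pairs of pools, and 11 to 17 of the 2419 sites differed by over 20 points. Pearson's r across sites was 0.991 to 0.992 over all 2419, which span both peaks of the distribution, and 0.940 to 0.952 over the 584 sites of 10 to 90%. The median range over the 4 pools was 0.151 points at unmethylated sites, 8.97 at 10 to 70%, 6.43 at 70 to 90% and 1.88 at methylated sites. A range over 10 points occurred at 250 sites (10.3%), 0 of them unmethylated, and the widest was 49.8 points.

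Control 2 stood apart, most of all at sites that were neither methylated nor unmethylated. At 10 to 90% the mean was 67.1%, 69.5%, 67.6% and 67.5% in controls 1 to 4, with a counting error of 0.163 to 0.170 points. Control 2 was the highest pool at 44.3% of 583 such sites without a tie, where an equal share is 25%, and the lowest at 11.9% of 582. The authors' adjusted levels, which correct each library for enzyme efficiency with spiked standards, also had control 2 highest, at 71.2%, 72.8%, 70.8% and 71.1% in controls 1 to 4, while the other pools changed order. At methylated sites control 2 was highest at 31.1% of 1246 sites without a tie, control 1 at 27.7%, control 3 at 23.3% and control 4 at 18.0%. Controls 1 and 2 had the same mean level there, 97.2%, so control 2 did not stand apart in that class. Over all sites control 2 was highest at 34.5%. At unmethylated sites it was highest at 27.6%, near an equal share. Control 2 was also the pool with the fewest reads and the largest share of them at listed lone sites, and the part of these in its level was not tested.

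Sites that differed between the pools by more than counting error were sought with a chi-square test of homogeneity of methylated and unmethylated reads. It was run at the 1292 sites with an expected count of at least 5 in every cell, and p was adjusted by the Benjamini-Hochberg method over all of them. At a threshold of 0.05, 119 sites were called, 9.21% of those tested, and 291 (22.5%) had an unadjusted p under 0.05. The test takes each read as independent, so that PCR copies would make its p too small. Control 2 was the highest pool at 63 (52.9%) of the called sites. Without control 2 57 sites were called, without control 1 78, without control 4 86 and without control 3 121.

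Called sites were mostly deep, and their differences mostly small. Their median range over the pools was 6.61 points, from 0.598 to 49.8, and 35 of the 119 had a range over 10 points. Their median depth was 1005 reads per pool, against 589.5 at tested sites that were not called. By class, 6 of 26 tested unmethylated sites, 38 of 238 at 10 to 70% (16.0%), 39 of 295 at 70 to 90% (13.2%) and 36 of 733 methylated sites (4.91%) were called. Only 26 of the 240 unmethylated sites could be tested. A site near either limit can reach the expected count of 5 through a single deviating pool, so these shares cannot be compared between classes. At 10 to 90% with at least 1500 reads, 13 of 46 sites (28.3%) were called, and with 20 to 100 reads 0 of 137 were. Among methylated sites with 20 to 100 reads, 1 of the 10 that could be tested was called.

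The 6 sites with the largest chi-square among those with at least 50 reads in each pool had adjusted p from 1.37e-38 to 1.55e-15, by the chi-square test above. The widest difference was on chromosome 23 at position 25309283, with 57.8% in control 1, 29.0% in control 2, 7.97% in control 3 and 15.8% in control 4, from 237, 176, 301 and 291 reads. The 4 levels spanned 49.8 points, and without control 1 the site was still called, at an adjusted p of 1.82e-06. On chromosome 21 the site at 25325253, named above near 50%, had 2026, 2084, 2333 and 2711 reads. Controls 1 and 2 were high there and controls 3 and 4 low, and it was called without any 1 of the 4 pools, at an adjusted p of at most 5.87e-12. Its neighbour 212 bp away had 95.5%, 87.5%, 90.3% and 78.0% from only 44 to 62 reads.

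At the other 4 sites a single pool deviated most, except on chromosome 23 at 28606196. On chromosome 23 at 28606196 the levels were 74.1%, 94.5%, 87.0% and 82.9% in controls 1 to 4, spread over all pools with control 1 lowest, and without control 1 the adjusted p was 1.40e-05. Its neighbour 374 bp away had 86.2%, 88.8%, 86.7% and 90.5%, with a narrower spread and another order. On chromosome 9 at 1501041 they were 96.4%, 99.7%, 99.9% and 99.7%, with control 1 alone below. On chromosome 8 at 26976240, the deep unmethylated site described above, control 4 alone was high at 0.885%. Without these deviating pools the chromosome 9 and chromosome 8 sites had too few reads of the rarer kind to be tested.

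The site on chromosome 19 at 5296207 had nearly all its methylated reads in a single pool. It had 0%, 2.08%, 0.036% and 0% in controls 1 to 4 from 3148, 2256, 2781 and 2997 reads, and 47 of its 48 methylated reads came from control 2. Without control 2 the site had too few methylated reads to be tested. Its neighbour 241 bp away had 3149, 2265, 2788 and 2991 reads, almost the same numbers, and 0.0635%, 0.0883%, 0.0359% and 0.0669%. The high level of control 2 was thus seen at 1 site of the pair and not at the other. Among the 375 neighbouring pairs where both sites were tested, 65 had at least 1 called site and 14 had both called.

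**Figure D5:**
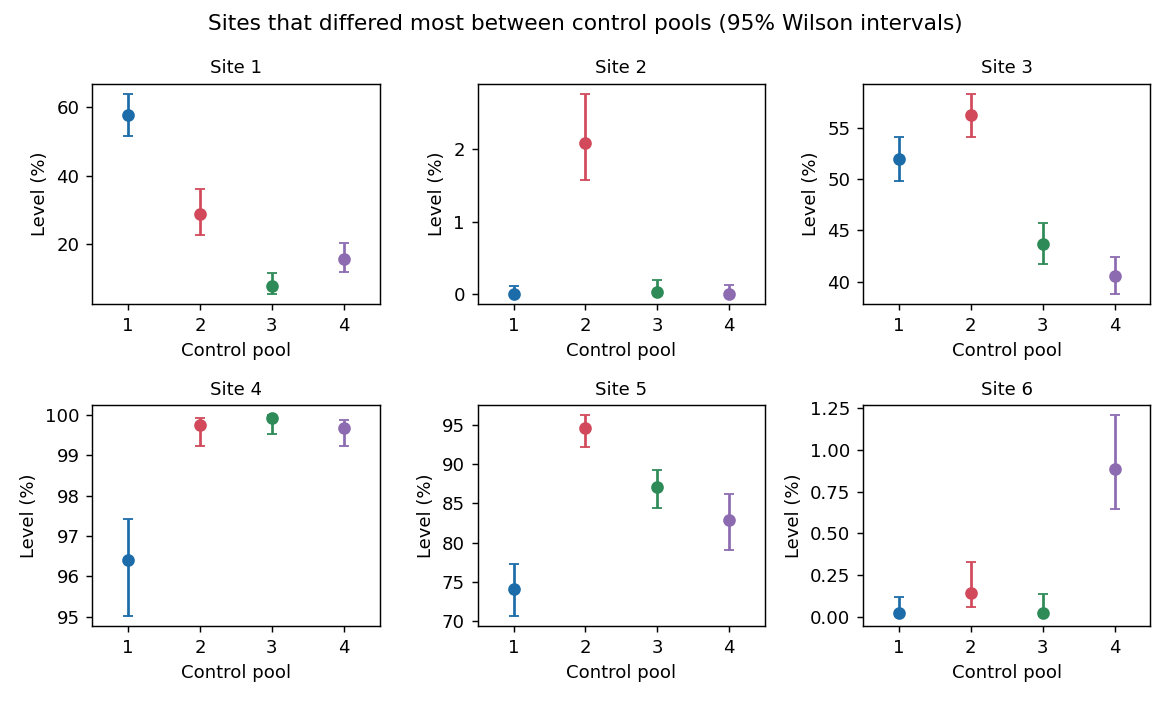
Methylation level (vertical axes, percent, each with its own scale) in the 4 control pools at the 6 sites with the largest chi-square, with 95% Wilson intervals of counting error. Chi-square grows with reads, so these are not the 6 sites with the widest differences. Sites 1 to 6 are chromosome 23 at 25309283, chromosome 19 at 5296207, chromosome 21 at 25325253, chromosome 9 at 1501041, chromosome 23 at 28606196 and chromosome 8 at 26976240, and the differences run from under 1 point at site 6 to 49.8 points at site 1.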

How the data were processed

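Per the labels' protocols, DNA was spiked with 8 methylation standards, digested with SmaI and then XmaI, and amplified with 12 PCR cycles. The deposited files give methylated, unmethylated and total reads per site, and their deposited unit was set to expected counts, since a correction factor shares their column; site values were whole. Deposited raw and adjusted levels are in percent: the raw level adds 0.5 to each kind of read, and the adjusted one applies the factor from the standards, per the series' design text. Per the submitters' processing notes the build is danRer7; the aligner is not given in the sources used here.

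Spike and correction entries were dropped and levels computed as methylated over total reads wherever all 4 control libraries had at least 20 reads, and no exposed library entered. Means and SDs are over 4 libraries. The chi-square test had 3 degrees of freedom, an expected minimum of 5 and a Benjamini-Hochberg threshold of 0.05. It was run on simulated data as a check of the code. The simulated reads were independent, so that check cannot tell how PCR copies affect the calls. Consecutive unmethylated sites with gaps up to 5000 bp formed a run, and consecutive analysed sites of any level with such gaps a region. Sites and chromosomes were named by rule: the 6 largest chi-squares and 6 largest differences between neighbours within 1000 bp (at least 50 reads per pool), the 4 longest unmethylated runs, the 4 sites nearest 50% (at least 100 reads), the 3 deepest sites under 10% and of 90% or over, and the 3 chromosomes at each end; flanking sites, the deepest site with 0 methylated reads and the stretches of chromosome 4 were chosen after seeing the values. The members and lists were chosen with earlier results of these data known. Alternatives were other coverage minimums, adjusted levels, other thresholds and leaving out each library. Python 3.11.15, numpy 2.4.6, pandas 2.3.3, scipy 1.17.1 and matplotlib 3.10.9 were used.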

Additional observations from a re-analysis of the deposited data

Results flagged for a closer look

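In 9 of 49 groups of 4 pool values a single pool stood far from the rest by Dixon's criterion for the gap to the nearest pool, where chance gives about 1 in 20 groups, or 2.45 of 49. The groups overlap, and 4 of the 9 are sites named for their large chi-square between pools or the same site again. The count thus cannot be read against that chance value. Control 2 was the separate pool in 4 of them. At sites of 70 to 90% it had 84.3%, against 82.4% to 82.5% in the others. At sites with 1 other listed site within 1000 bp it had 79.2%, against 78.4% to 78.5%. On chromosome 19 at 5296207 it had 2.083%, against 0% to 0.0360%. In the unmethylated run on chromosome 2 from 55503512 it had 0.1399%, against 0.0261% to 0.0347%. Most of this average came from the site at 55504185, where control 2 had only 338 reads and the other pools no methylated read. The gap thus rests on very few methylated reads, and whether it exceeds counting error was not tested.

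Control 1 was separate on chromosome 9 at 1501041, at 96.4% against 99.7% to 99.9%, and on chromosome 6 at 59083311, at 98.38% against 98.56% to 98.57%, a gap of little size. Control 3 was separate on chromosome 11 at 21820212, at 0.202% against 0.0517% to 0.0664%. Control 4 was separate on chromosome 8 at 26976240, at 0.8848% against 0.0214% to 0.141%, a site counted in 2 of the 9 groups because it was named under 2 criteria.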

How the results depend on the processing

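Leaving out each pool in turn gave a mean level of 80.3% to 80.7%, 9.81% to 10.1% of sites under 10% and 65.5% to 66.4% at 90% and over, 57 to 121 sites that differed between pools, a neighbour difference of 3.07 to 3.15 points, 5.14 to 5.61 points for lone minus other sites, 20.2 to 21.9 points for chromosome 3 minus chromosome 8, and a spread beyond counting of 2.87 to 3.40 points. With minimums of 10, 50 and 100 reads, the share under 10% was 10.03%, 11.37% and 12.58%, the neighbour difference 3.323, 2.626 and 2.389 points, the lone-site difference -2.472, 6.686 and 8.943 points, and the chromosome difference 18.78, 23.02 and 26.43 points. With 50 and 100 reads the mean was 79.34% and 78.64% and the share of 90% and over 65.17% and 65.14%. With 10 and 100 reads the spread was 3.692 and 2.802 points.

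The adjusted levels gave a mean of 81.49%, shares of 9.797% and 68.09% at the low and high ends, a neighbour difference of 2.503, a chromosome difference of 21.13 and a spread of 2.671 points. Weighting by reads, with the 4 pools summed, gave a mean of 68.57%. Class limits of 20% and 80% gave 10.62% and 75.98%. A window of 500 bp gave -0.6241 points for lone sites, and chromosome medians differed by 7.323 points. A threshold of 0.01 left 55 sites that differed between pools; other minimums of reads, a G test, an expected minimum of 1 and a library term gave 83 to 135. Of 3 alternatives chosen after seeing the data, regions gave a chromosome difference of 17.28 points, neighbours of unlike read number 3.69 points, and sites that did not differ between pools a spread of 2.604 points. Mean levels of named sites moved by more than their SD in 11 checks, all with the adjusted levels, and by less in the other 194. Only the adjusted levels could move a named site so far. A minimum of reads does not change the level of a site, and leaving out 1 of 4 pools cannot shift its mean by a full SD. Most of the 194 results were thus fixed in advance and are no sign of stability. The cause of the shifts with processing was not tested. No paired analysis was possible because only 1 group was analysed.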
